A study of Danio rerio with 14 samples.

Results

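At 3 times after amputation of zebrafish (Danio rerio) fins, some RNA libraries of the ray tip held much more transcript of fosb, a subunit gene of the AP-1 transcription factor, than others of the same time. The comparison set 4 high fosb libraries against the 5 low fosb libraries of the same times, 9 of the 14 libraries in the study. The members were chosen by the deposited fosb level itself, in TPM (a transcript abundance per length, with an equal sum in each library): a library with at least 500 TPM counted as high. At 0 days post amputation (dpa) fosb was at 1348 TPM in replicate 1 and at 136 and 82.3 in replicates 2 and 3. At 7 dpa replicate 2 held 1702 TPM and replicates 1 and 3 held 68.7 and 64.8, while at 10 dpa replicates 2 and 3 held 886 and 1343 and replicate 1 held 46.3. The value just inside the threshold was thus 886 TPM and the value just outside it, among the libraries compared, was 136. Because a measured gene chose the groups, every difference between them below is a description without a test, and fosb is left out of the results.

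The fish were wild type, per the sample titles. Each library was made from a separate pool of 10 animals, from the outermost 250 µm or so of each ray, with 3 pools for each of the 3 times compared. Tissue at 0 dpa was taken on the day of amputation, and that at 7 and 10 dpa during regrowth. At the remaining times no library reached the threshold: fosb was at 102, 41.1 and 23.0 TPM in the libraries labelled 3 dpa and at 24.8 and 144 at 14 dpa, where 2 pools were sequenced. The labels give no hour of collection, date, position along the fin, RNA quality or sequencing batch for any library, so none of these can be told apart from the groups. In bulk tissue, fewer cells of a type and less RNA per cell also cannot be told apart.

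AP-1 is built from pairs of Fos, Jun and related leucine-zipper proteins. Genes of the immediate early class, among them fos, egr, nr4a and klf family members, are transcribed within minutes of a stimulus, without new protein synthesis, and their transcripts decay quickly. Growth factor signals through Erk, injury and stretch induce them in many vertebrate tissues, and the phosphatases and RNA-binding proteins among their targets shut the signal and the transcripts down again. In regenerating fins, AP-1 genes are known for their activation after injury.

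The high libraries held more genes at 1 TPM or above, 10509 to 10896 against 10197 to 10611 in low libraries. The median gene lay between 8.03 and 10.31 TPM in high libraries and between 5.96 and 9.13 in low ones. On both measures each high library exceeded each low library of its own time, and the part of this in the differences given here was not tested. Transcripts of cytosolic ribosomal proteins took 6.44% to 7.92% of all TPM in high libraries and 6.28% to 7.18% in low ones. No libraries held identical values. The epidermal keratin gene krt5 was at 46020 to 86470 TPM in the 9. Of the muscle markers, myhz1.1, myhz1.2, pvalb1, pvalb2, pvalb4, actc1a and tnni2a.4 were at 0 in all 9. Fin rays themselves hold no skeletal muscle.

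For each gene the difference, high minus low, was estimated on log2(TPM + 1) with time as a factor, and is given with its standard error (n = 4 high and 5 low libraries). A gene was called higher when the difference was at least 1, a doubling, and each high library lay above each low library of its own time at all 3 times, and called lower in the mirrored case. Of 11081 genes, 586 were called higher, 5.29% of those tested, and 196 were called lower, 1.77% of those tested. The counts called in each list below stand beside these shares. A larger number kept to 1 side whatever the size of the difference, 4039 genes above and 1940 below at every time. The difference was at least 2 in 34 of the genes called higher and -2 or below in 18 of those called lower. Ignoring time, all 4 high libraries lay above all 5 low ones in 456 of the 586 genes, and below them in 145 of the 196.

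The median gene was 0.14 higher in the high libraries on the log2 scale, and the other differences stand against that shift. Median-of-ratios scaling brought the median to 0.0063 and quantile normalization to 0.0028. The genes called higher were 74.9% of all called as deposited, 384 against 302 lower (56%) with median-of-ratios scaling, and 349 against 338 (50.8%) with quantile normalization. All 384 and all 349 were among the 586.

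**Figure D1:**
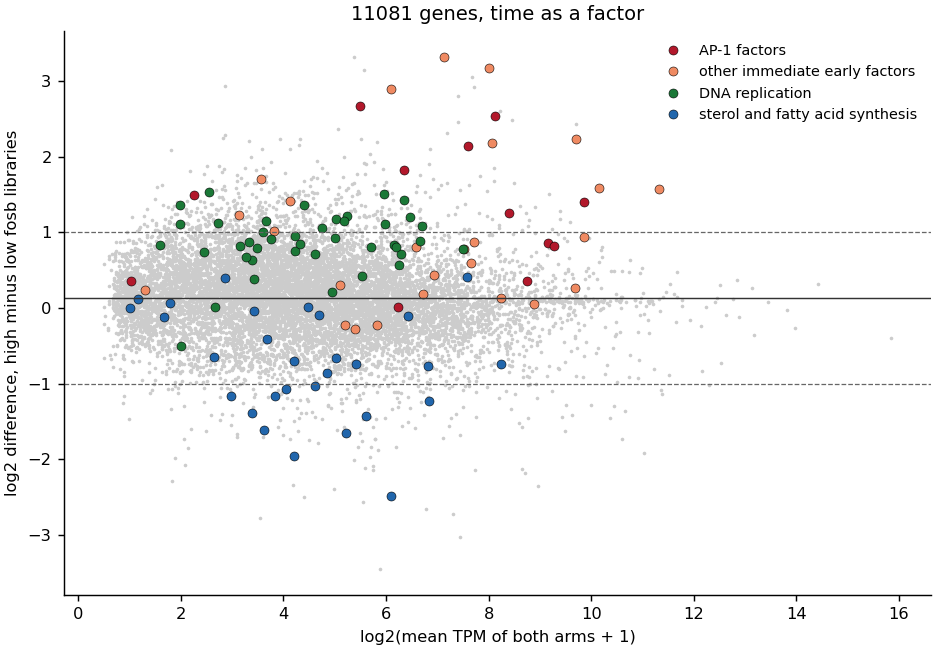
Difference between high and low fosb libraries for each of 11081 genes (vertical axis, log2) against its mean level over both groups (horizontal axis, log2(TPM + 1)), with 4 gene groups in colour. The solid line marks the median of all genes, 0.14, and the dashed lines mark differences of 1 and -1. The 12 AP-1 genes lie at or above 0.01, and 10 of the 29 sterol and fatty acid genes are called lower.

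Of 12 AP-1 genes measured besides fosb, 7 were called higher and none lower, with a median difference of 1.33 against 0.14 over all genes. The Fos gene fosab was at 1503 TPM in the high library at 0 dpa against 523 and 802 in the low ones. At 7 dpa it was at 1444 against 670 and 481, and at 10 dpa at 639 and 1555 against 314. The high libraries were above the low ones of their time throughout, with 10 dpa replicate 2 the lowest of the 4 (difference 1.41 ± 0.25). For fosl1a, a Fos-related gene tied to wound edges in mammals, the 4 high libraries held 392, 286, 237 and 272 TPM and the 5 low ones between 32.1 and 143 (2.14 ± 0.24).

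The largest differences among AP-1 genes were in atf3 and jdp2b, whose products pair with Fos and Jun proteins. The stress-induced factor gene atf3 was at 46.5, 139.5, 39.0 and 57.05 TPM in the high libraries, in the order 0 dpa, 7 dpa and the pair at 10 dpa, and at 6.85 to 12.3 in the low ones (2.68 ± 0.22). The Jun dimerization gene jdp2b stood at 334.6 TPM in the high library at 0 dpa, 824 at 7 dpa, and 130 and 464 at 10 dpa, against 46.4 to 119 in the low libraries (2.54 ± 0.38). Its 2 high libraries at 10 dpa differed more from each other than the lower of them did from the low library. The Jun family gene jund (1.83 ± 0.20), the Fos relative fosl2 (1.26 ± 0.22) and the lymphoid factor gene batf (1.49 ± 0.14) were also called higher. The Jun genes junba (0.86 ± 0.13) and junbb (0.82 ± 0.16) were below the size needed, and jun itself (0.36 ± 0.13, or 0.61 without 0 dpa replicate 1), batf3 (0.35 ± 0.15) and maff (0.01 ± 0.15) differed least.

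Of 26 transcription factor genes of the wider immediate early class, 11 were called higher and none lower, with a median of 0.84. The orphan nuclear receptor gene nr4a1 was at 192.5 TPM in the high library at 0 dpa against 42.0 and 33.55 in the low ones. At 7 dpa it was at 343 against 27.7 and 17.3, and at 10 dpa at 127 and 328 against 14.5. Each high library lay above each low library of any time (3.32 ± 0.34), and its relatives nr4a3 (2.90 ± 0.24) and nr4a2b (1.71 ± 0.31) differed in the same direction. The Krüppel-like factor gene klf4 was at 436, 542, 234 and 578 TPM in the high libraries and at 31.2 to 102 in the low ones (3.17 ± 0.32).

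Most abundant of the class was klf2a, a flow-responsive factor gene in vessels of other vertebrates, at 3059 to 4558 TPM in high and 859 to 1934 in low libraries (1.57 ± 0.14). The antiproliferative gene btg2 was at 1365, 1596, 728 and 1534 TPM in the high and at 192 to 430.5 in the low libraries (2.23 ± 0.26). Further genes called higher were csrnp1b (2.19 ± 0.28), the C/EBP gene cebpb (1.59 ± 0.16), the early growth response genes egr3 (1.42 ± 0.22) and egr2a (1.23 ± 0.29), and cremb, of the cAMP response (1.01 ± 0.17). The Myc genes were uneven: mycb gave 0.81 ± 0.11, mych 0.18 ± 0.14 and myca -0.28 ± 0.15. Among the remaining members, cebpd (0.93 ± 0.11), ier5 (0.87 ± 0.12), ier2b (0.79 ± 0.14), klf2b (0.59 ± 0.19) and ier2a (0.44 ± 0.15) lay above the median of all genes without reaching a difference of 1. The genes klf6a (0.27 ± 0.09), egr2b (0.24 ± 0.17), btg1 (0.05 ± 0.10), ier5l (-0.22 ± 0.14) and the nfil3 genes (-0.22 to 0.31) were near it or below.

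**Figure D2:**
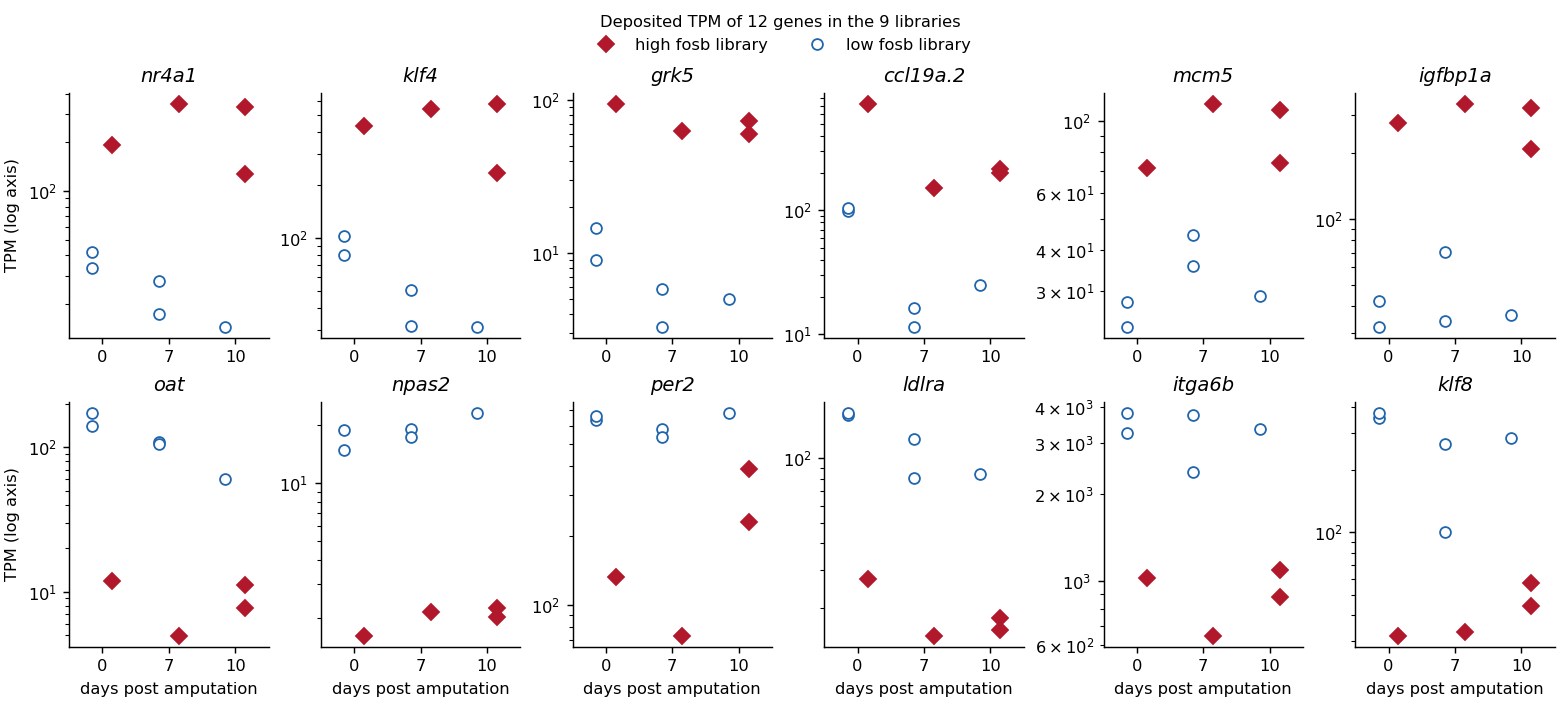
Deposited TPM (log axis) of 12 genes in each of the 9 libraries, by days post amputation, with filled diamonds for high and open circles for low fosb libraries. In each panel the diamonds lie on 1 side of the circles of the same time: above in the upper row, where nr4a1 spans 127 to 343 against 14.5 to 42.0 TPM, and below in the lower row, where npas2 spans 1.62 to 2.25 against 14.9 to 23.2.

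A list of genes of transcript decay and signal feedback, which also held the kinase gene sgk1 and gadd45 stress genes, was higher in part. Of 31 tested, 9 were called higher and none lower, with a median of 0.76, and 5 were called with median-of-ratios scaling. Among MAP kinase phosphatase genes, dusp2 was at 109, 93.7, 83.2 and 118 TPM in the high and at 25.7 to 40.8 in the low libraries (1.52 ± 0.15). The Erk phosphatase gene dusp5 was at 471.5, 222, 360 and 416 TPM in the high libraries and between 41.5 and 260 in the low ones, so the high library at 7 dpa lay below a low one of 0 dpa (1.54 ± 0.29). Its relative dusp1 gave 1.08 ± 0.16 and dusp4 0.82 ± 0.21, while dusp7 (0.09 ± 0.06) and dusp16 (-0.09 ± 0.11) were near 0.

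The serum and glucocorticoid kinase gene sgk1 (1.74 ± 0.28), the NF-kB inhibitor gene nfkbiab (1.28 ± 0.13), the cytokine signal inhibitor gene socs3a (1.05 ± 0.14), the stress genes gadd45ba (1.06 ± 0.24) and gadd45bb (1.07 ± 0.13) and the antiproliferative gene tob1b (1.34 ± 0.16) completed the 9. The second NF-kB inhibitor gene, nfkbiaa, gave 0.99 ± 0.07 and so fell just short. Sprouty genes, whose products restrain Erk signalling, differed among themselves: spry4 gave 0.97 ± 0.10, spry2 0.02 ± 0.12 and spry1 -0.37 ± 0.19. Of the genes for proteins that bind AU-rich transcripts and speed their decay, zfp36l1b gave 0.87 ± 0.10, zfp36l1a 0.40 ± 0.11 and zfp36l2 -0.73 ± 0.14. The other 12 members lay between -0.31 (socs1b) and 0.96 (socs1a).

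Ets factors that respond to Erk formed a short list whose members differed in both directions by less than the size needed. The study's title names Erk gradients. Of 7 such genes tested none was called, beside 5.29% called higher and 1.77% lower over all genes, so a list this short could hold no call at those shares. At every time 2 of the 7 lay above and 2 below. The median was 0.10 as deposited and -0.05 with median-of-ratios scaling. When 0 dpa replicate 1 was left out, the median was -0.26. The Fgf-induced genes etv4, etv5b and etv5a gave 0.49 ± 0.13, 0.10 ± 0.20 and -0.44 ± 0.11. For etv5a the high libraries at 0, 7 and 10 dpa held 19.9, 46.6, 36.1 and 40.3 TPM, each under the low libraries of its time at 23.4 to 61.9. Of the others ets2 gave 0.79 ± 0.09, elk4 0.22 ± 0.16, ets1 -0.13 ± 0.18 and elk3 -0.45 ± 0.10.

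Ligands, enzymes of inflammation and chemokines were higher in part. Of 36 inflammatory genes tested, 9 were called higher and none lower, with a median of 0.62. The chemokine gene ccl19a.2 was at 716 TPM in the high library at 0 dpa against 99.5 and 105 in the low ones. It was at 151 against 16.4 and 11.5 at 7 dpa, and at 199 and 217 against 24.8 at 10 dpa. High libraries exceeded the low ones of their time several times over (3.06 ± 0.13), and ccl19a.1 (1.47 ± 0.20) and ccl19b were also called. Reads that fit more than 1 of the ccl19 genes are divided by estimation, so the split between them may be uncertain. Their sequences were not compared here. The prostaglandin synthase gene ptgs2a (1.65 ± 0.15) and the neutrophil-attracting chemokine gene cxcl8b.1 (1.58 ± 0.34) followed. The cytokine genes il1b (0.28) and tnfa (0.88) were not called, nor was irg1l (2.00 ± 0.87), whose high and low libraries overlapped.

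Other genes named for the size of their difference stood outside the lists. The receptor gene tnfrsf18, a costimulator of T cells in mammals, was at 141, 44.9, 78.6 and 57.1 TPM in the high and at 4.04 to 15.3 in the low libraries (3.15 ± 0.17). The inducible nitric oxide synthase gene nos2a was at 1724, 1263, 909.5 and 1370 TPM in the high libraries and at 95.1 to 516 in the low ones (2.43 ± 0.28). Arginase gene arg2, whose product turns arginine into ornithine, stood at 844, 479, 368 and 530 against 74.3 to 182 (2.49 ± 0.12). In the opposite direction oat, which encodes ornithine aminotransferase, was the gene with the most negative difference of those named: it was at 11.9, 4.96, 11.13 and 7.66 TPM in the high and at 60.1 to 172 in the low libraries (-3.45 ± 0.24). For nos2a, arg2 and oat, no high library overlapped with any low library of any time.

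The most positive difference of all those named was that of grk5, a kinase gene whose product desensitizes activated G protein-coupled receptors. It was at 93.8 TPM against 14.5 and 9.04 at 0 dpa, at 62.5 against 5.85 and 3.31 at 7 dpa, and at 60.4 and 73.25 against 4.99 at 10 dpa (3.32 ± 0.20). The insulin-like growth factor binding protein gene igfbp1a was at 275, 336, 210 and 322.5 TPM in the high and at 32.0 to 70.8 in the low libraries (2.81 ± 0.21). The genes plekhs1 (2.94 ± 0.16), aste1a (2.61 ± 0.22), fam83fb (2.47 ± 0.12) and stap2b, an adaptor gene of cytokine signalling (2.37 ± 0.18), complete the 15 named for the largest positive difference.

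Of 18 genes in a list of Egf family ligands, coagulation genes and Yap/Taz targets, 7 were called higher and none lower, with a median of 0.53. The Egf receptor ligand gene hbegfa was at 298.5, 212, 178 and 237 TPM in the high and at 81.0 to 121.5 in the low libraries (1.33 ± 0.15), and hbegfb and btc (1.35 ± 0.13) were called too. The matricellular gene ccn1 was at 420 TPM against 150 and 213.5 at 0 dpa, at 1342 against 355 and 390.5 at 7 dpa, and at 729 and 943 against 299 at 10 dpa (1.51 ± 0.14). Tissue factor genes f3a and f3b (1.49 ± 0.19) and the plasminogen activator gene plaua were the others. Other targets of Yap and Taz were not called: ccn2a gave 0.52, ccn2b 0.01 and amotl2a -0.37.

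The lists of general stress responses differed in their counts, which stand beside 5.29% called higher and 1.77% called lower over all genes. Of 25 heat shock and chaperone genes, 1 was called higher, the Hsp90 cochaperone gene chordc1a (1.15 ± 0.16), and none lower, with a median of 0.06 that became -0.09 with median-of-ratios scaling. The inducible genes hsp70.1, hsp70.2 and hsp70.3 gave -0.14, -0.33 and -0.43, while hsp70l gave 0.83. Of 24 genes of the unfolded protein and integrated stress responses, 4 were called higher, namely the chaperone genes pdia4 (1.12 ± 0.16) and hsp90b1 (1.03 ± 0.16) and the phosphatase subunit genes ppp1r15a (1.12 ± 0.17) and ppp1r15b (1.07 ± 0.16), which reverse the block of translation. The median was 0.48, none was called with median-of-ratios scaling, and 2 were called without 0 dpa replicate 1. In the hypoxia list of 19, igfbp1a and bnip3 (1.09 ± 0.14) were called higher and hif1al, a hypoxia factor relative, lower (-1.02 ± 0.13), with a median of 0.02 that was -0.12 with scaling. Without 7 dpa replicate 1 or 2 no hypoxia gene was called lower, and without 0 dpa replicate 1 only 1 was called higher. Of 11 p53 targets cdkn1a, the p21 inhibitor of cyclin kinases, was called higher (1.61 ± 0.18) and mdm2, which marks p53 for destruction, lower (-1.22 ± 0.16). Of 10 glucocorticoid targets sgk1 was called higher and the zinc finger factor gene zbtb16a lower, the latter at 15.9, 20.8, 17.1 and 20.7 TPM in the high and 74.0 to 118 in the low libraries (-2.15 ± 0.15).

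Interferon genes were higher in part. Of 32 tested, 4 were called higher, beside 5.29% of all genes, and none lower. The median was 0.32, and 3 genes were called with median-of-ratios scaling. The 4 called as deposited were the regulator genes irf1a (1.85 ± 0.23) and irf7 (1.58 ± 0.24), the antiviral gene mxc (1.24 ± 0.29) and the ubiquitin-like modifier gene isg15 (1.12 ± 0.14). For irf7 the levels at 14 dpa, 230 and 381.5 TPM, were within or above the range of the high libraries, 124 to 279. Values within the mx family may be uncertain for the same reason as those of the ccl19 genes.

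Of 41 genes of DNA replication tested, 16 were called higher and none lower, with a median of 0.87 (0.82, 1.06 and 0.87 within 0, 7 and 10 dpa), and 40 had a positive difference. In 37 of the 41, each high library lay above each low library of its own time, against 4039 of all 11081 genes. The helicase subunit gene mcm5 was at 71.5 TPM in the high library at 0 dpa against 27.8 and 23.3. At 7 dpa it was at 112.5 against 44.5 and 35.7, and at 10 dpa at 74.2 and 108 against 28.9 (1.51 ± 0.13). The levels separated the groups at all times, as did those of mcm2 (1.43 ± 0.14), the origin recognition gene orc6 (1.53 ± 0.14) and mcm10 (1.37 ± 0.18). The sliding clamp gene pcna gave 0.78, and the S phase cyclin gene ccne1 alone had a negative difference, -0.50. With median-of-ratios scaling 11 of the 41 were called higher and the median was 0.74.

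Of 43 genes of mitosis tested none was called, but 42 had a positive difference and 32 lay above at every time, with a median of 0.47 (0.67, 0.42 and 0.33 within 0, 7 and 10 dpa). Of all 11081 genes, 4039 lay above at every time. The median of the mitosis list was 0.33 with median-of-ratios scaling and 0.28 with quantile normalization. A list of genes of DNA damage signalling and mismatch repair, put together after the largest differences had been seen, held 32 tested genes. All 32 differences were positive, with a median of 0.84, which could follow from the choice of members, and 13 were called higher. Among them mdc1, which binds marked chromatin at breaks, was at 13.2, 25.3, 14.3 and 19.8 TPM in the high and at 2.43 to 7.36 in the low libraries (1.75 ± 0.14). The mismatch repair gene msh6 was at 45.2 to 74.6 TPM in the high and at 13.7 to 29.1 in the low libraries (1.63 ± 0.15), and tp53bp1, which guards break ends, at 49.8 to 76.9 and 15.7 to 28.4 (1.54 ± 0.13).

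Circadian clock genes differed in both directions. In the vertebrate clock, Clock or Npas2 pairs with Arntl (Bmal) to drive the per, cry and nr1d genes, whose products repress that drive, and in zebrafish tissues per2 and some cry genes also respond to light directly. Of 33 clock genes tested, 3 were called higher and 4 lower, beside 5.29% called higher and 1.77% lower over all genes. The median was 0.09, and -0.02 with median-of-ratios scaling. The activator gene npas2 was at 1.62 TPM in the high library at 0 dpa against 18.9 and 14.9. It was at 2.15 against 19.1 and 17.3 at 7 dpa, and at 2.25 and 2.03 against 23.15 at 10 dpa. Each high library held a small fraction of the level in any low library (-2.77 ± 0.13).

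The repressor gene per2 was at 132 TPM against 639 and 665 at 0 dpa, at 73.4 against 583 and 534 at 7 dpa, and at 389 and 229 against 681 at 10 dpa (-2.13 ± 0.26). The difference was smaller at 10 dpa, where both high libraries were above those of the other times. The cryptochrome family genes cry5, which acts as a photolyase in zebrafish, and cry3b gave -2.56 ± 0.28 and -1.20 ± 0.17. Higher were the nuclear receptor gene nr1d4b, at 24.1, 8.98, 8.21 and 11.99 TPM in the high and 1.72 to 8.31 in the low libraries (1.51 ± 0.16), and the output factor genes hlfb (1.41) and hlfa (1.03). The repressor gene nr1d1 and the activator gene clocka were close to the call, at 0.99 each. Of the other core genes, cry1a (-0.64) and cry3a (-0.57) were below and per1b (0.48) and per1a (0.24) above at every time, while arntl1b (-0.02), arntl2 (0.06) and cry2 (-0.12) overlapped. In a list of 10 genes known to respond to light in zebrafish, put together after values had been seen, all 10 differences were negative. Their median was -0.92 and 4 were called lower (per2, cry5, cry-dash and the repair gene xpc), which could follow from the choice of members.

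**Figure D3:**
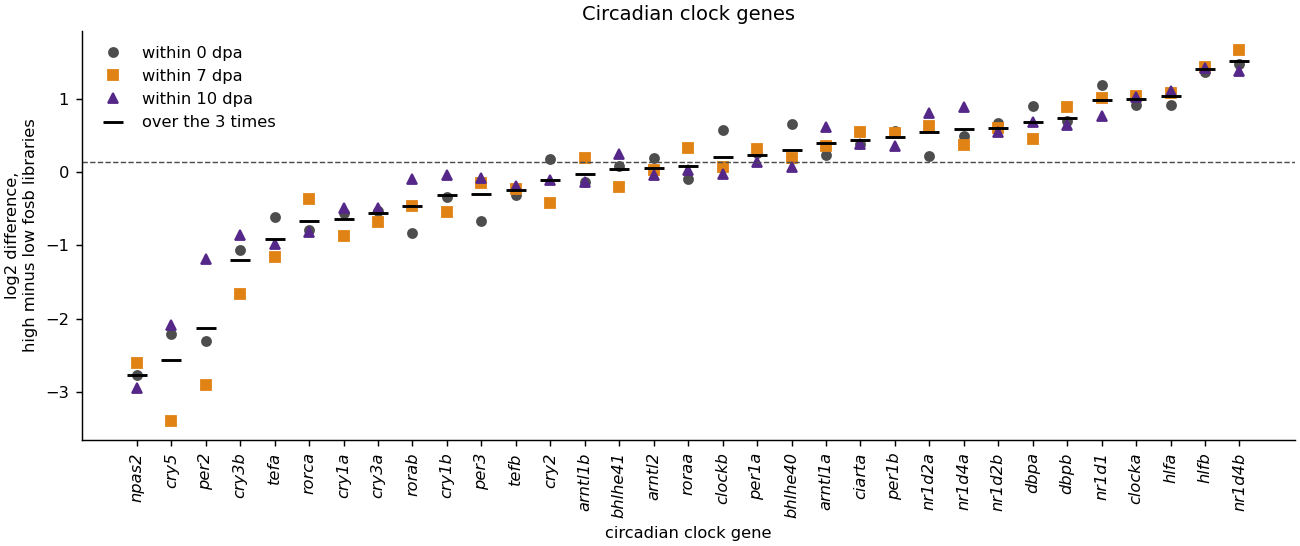
Difference (log2) between high and low fosb libraries for the 33 circadian clock genes tested, ordered by size, within 0, 7 and 10 dpa (circles, squares and triangles) and over the 3 times (black bars). The dashed line marks the median of all genes, 0.14. The genes npas2, cry5 and per2 lie lowest at each time and nr1d4b and hlfb are highest overall.

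Of 29 genes of sterol and fatty acid synthesis and sterol uptake, 10 were called lower and none higher, and 6 had a positive difference, with a median of -0.74 (-0.64, -0.76 and -0.70 within 0, 7 and 10 dpa). The low-density lipoprotein receptor gene ldlra was at 27.3 TPM in the high library at 0 dpa against 160 and 162. It was at 14.8 against 123 and 80.8 at 7 dpa, and at 17.8 and 15.65 against 84.6 at 10 dpa. All 4 high libraries were far under the 5 low ones (-2.49 ± 0.13). The squalene epoxidase gene sqlea gave -1.96 ± 0.26 and, for the steps after it, msmo1 -1.66 ± 0.21 and ebp -1.61 ± 0.35. A gene of the rate-limiting enzyme, hmgcra, was at 142.5 TPM against 278 and 269 at 0 dpa, 24.9 against 81.3 and 104 at 7 dpa, and 52.3 and 51.3 against 96.7 at 10 dpa (-1.22 ± 0.16). Another gene of that enzyme, hmgcrb, was not called. It was at 84.05 TPM against 96.0 and 90.3 at 0 dpa and 72.7 against 91.7 and 75.1 at 7 dpa. At 10 dpa hmgcrb was at 103 and 74.8 against 86.75, so the libraries overlapped. The insig1 gene, whose product retains the sterol sensor in the endoplasmic reticulum, gave -1.03. Genes of fatty acid synthesis were not called and differed in direction: the elongase gene elovl6 gave -0.69 and was below at every time, acaca gave 0.41 and was above at every time, and scd gave 0.13. With median-of-ratios scaling 12 of the 29 were called lower. The bile acid synthesis gene cyp7a1, outside the list, was at 6.35, 1.34, 4.64 and 3.52 TPM in the high and at 7.65 to 78.35 in the low libraries (-2.35 ± 0.40).

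Markers of the epidermis included genes of adhesion that were called lower and others that were not called. The integrin genes itga6b and itgb4 encode the pair that holds basal cells to the basement membrane in hemidesmosomes. Transcripts of itga6b were at 1024 TPM against 3245 and 3806 at 0 dpa, at 646 against 2385 and 3740 at 7 dpa, and at 1090 and 882 against 3361 at 10 dpa (-1.92 ± 0.14). For itgb4 the 4 high libraries held 634 to 753 TPM and the 5 low ones 1741 to 3029 (-1.73 ± 0.11). The epidermal master factor gene tp63 gave -1.19 ± 0.11, and the plakin-type genes evpla and ppl, which link keratin to cell contacts, gave -1.29 ± 0.07 and -1.13 ± 0.07. Named after their values had been seen, the plakin gene eppk1 was at 695 to 917 TPM in the high and at 1749 to 2147 in the low libraries (-1.29 ± 0.08), the keratin gene krt97 at 741 to 1152 and 1816 to 3010 (-1.36 ± 0.17), and the desmosomal gene perp at 2560 to 4075 and 5747 to 7623 (-1.02 ± 0.09). The ezrin gene ezra, for a linker of membrane and actin, was at 3.96 to 7.09 TPM in the high and 28.6 to 50.15 in the low libraries (-2.51 ± 0.17). A list of hemidesmosome, plakin and cornified envelope genes, put together after values had been seen, held 18 tested genes. Of these, 14 were called lower and none higher, and 2 had a positive difference, counts that could follow from the choice of members. Other epidermal genes went both ways without being called. The keratin genes krt5 (-0.39) and krt4 (-0.35) and the desmosomal gene pkp3a (-0.83) were below at every time by less than the size needed. The adhesion gene cdh1 (0.39) and the claudin gene cldne (0.53) were above at every time, and the libraries overlapped for epcam (0.02). Of the basal markers, the collagen gene col17a1a was also above at every time. Its difference, 0.63, was the highest in the basal list and in the list of hemidesmosome, plakin and cornified envelope genes. It was at 349.5 TPM against 330.5 and 298 at 0 dpa and at 319 against 136 and 191 at 7 dpa. At 10 dpa it was at 407.5 and 380 against 235.

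Among the 15 named for the most negative difference were several further genes of transport and regulation. The nucleotide-cleaving ectoenzyme gene entpd8 was at 91.4 TPM against 793 and 307 at 0 dpa, at 4.62 against 350 and 237 at 7 dpa, and at 34.5 and 30.3 against 64.55 at 10 dpa (-3.03 ± 0.66). The factor gene klf8, a relative of klf4, was at 32.0, 33.4, 57.1 and 44.4 TPM in the high and at 100.5 to 373 in the low libraries (-2.73 ± 0.29), opposite in direction to klf4. The sodium pump subunit gene atp1a3b (-2.66 ± 0.32), the cofactor genes ssbp3a (-2.39 ± 0.15) and eya2 (-2.12 ± 0.16), the ubiquitin ligase receptor gene zyg11 (-2.14 ± 0.29) and numb, an inhibitor of Notch (-2.09 ± 0.14), were the others. For numb the high libraries held 24.0, 16.1, 21.1 and 15.11 TPM and the low ones 55.4 to 103.

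Notch pathway genes divided. Of 22 tested, 4 were called higher, beside 5.29% of all genes, and none lower, while the median was -0.32. The receptor genes notch1a (1.43 ± 0.15) and notch1b (1.08 ± 0.20), the ligand gene jag1a (1.93 ± 0.19) and the DNA-binding partner gene rbpjb (1.01 ± 0.24) were higher. Transcripts of jag1a were at 65.4 TPM against 16.35 and 9.64 at 0 dpa, 98.55 against 31.6 and 40.9 at 7 dpa, and 97.1 and 78.3 against 20.02 at 10 dpa. The receptor gene notch3 gave -0.83 and the target genes nrarpa, nrarpb, hey1 and heyl -0.89, -0.66, -0.80 and -0.57. With median-of-ratios scaling 2 were called higher and 1 lower, and without 7 dpa replicate 1 the count called higher was also 2.

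Few genes of the skeleton and of the blastema, the growth zone of the regenerate, were called in either direction, while 3 of 30 matrix genes were called lower. Over all genes, 5.29% were called higher and 1.77% lower. Of 4 actinotrichia genes, which build the fibrils of the fin fold, and3 was called higher (1.27 ± 0.24). No osteoblast gene of 17 was called (median 0.32), and of 9 osteoclast genes nfatc1 was called lower (-1.07 ± 0.35), a call lost without any 1 of 5 libraries (0 dpa replicates 1 or 2, 7 dpa replicates 1 or 2, or 10 dpa replicate 3). Of 30 matrix genes the collagen chaperone gene serpinh1b was called higher (1.62 ± 0.16), and loxl2a (-1.44 ± 0.20), vcanb (-1.19 ± 0.13) and fn1b (-1.08 ± 0.18) lower, with a median of 0.03 that was -0.12 with median-of-ratios scaling. With that scaling 1 matrix gene was called higher and 4 were called lower. For serpinh1b the high libraries held 4.22 TPM at 0 dpa, 174.5 at 7 dpa and 65.0 and 85.6 at 10 dpa, against 1.13 to 1.28, 36.6 to 51.6 and 23.3 in the low ones. In both groups the levels at 7 and 10 dpa were above those at 0 dpa. Of 44 blastema genes the leptin gene lepb was called higher (1.02 ± 0.34) and none lower, with a median of -0.09. The lepb call was lost without any 1 of 5 libraries (0 dpa replicate 3, 7 dpa replicates 2 or 3, or 10 dpa replicates 1 or 2). With median-of-ratios scaling no blastema gene was called higher and 2 were called lower.

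No gene was called among 78 for cytosolic ribosomal proteins (median 0.10), 76 nuclear genes of the respiratory chain (0.08) and 30 splicing regulators (-0.13). Of the splicing regulators 9 had a positive difference, and 14 were below and 4 above at every time. Of all 11081 genes, 1940 were below and 4039 above at every time. With median-of-ratios scaling these medians were -0.06, -0.07 and -0.28. In a list of 39 cilia genes that was put together after values had been seen, 12 were called higher and 2 lower, with a median of 0.50. The ciliogenesis factor gene foxj1a was at 0.41, 8.18, 2.32 and 3.66 TPM in the high and at 0.20 to 1.12 in the low libraries (1.36 ± 0.32), so the level at 0 dpa was very low in both groups.

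Markers of cell types in the tip differed for some types. Their counts stand beside 5.29% called higher and 1.77% called lower over all genes, and 1 call higher in a list of this length is near that share. All 13 lymphocyte markers tested had a positive difference, with a median of 0.59, and 4 were called higher: cd8a (1.29 ± 0.15), ikzf1 (1.14 ± 0.15), runx3 (1.09 ± 0.15) and cd4-1 (1.08 ± 0.12). With median-of-ratios scaling 1 was called. Transcripts of cd8a, a coreceptor of killer T cells, were at 13.6, 10.7, 11.98 and 15.65 TPM in the high and at 3.57 to 5.46 in the low libraries. Summed over the list, lymphocyte markers were at 488 to 759 TPM in high and 272 to 468 in low libraries, and no marker measured was at 0 in all 9. Much of that sum was ccr9a, at 174 to 316 TPM in the high and 91.0 to 204 in the low libraries. The next was runx3, at 143 to 209 and 63.2 to 99.3, so the sum says little about lymphocyte number. Of 23 macrophage markers mpeg1.2 was called (1.36 ± 0.13), with a median of 0.36 and sums of 7774 to 13910 and 6887 to 12570 TPM. Of 14 genes listed as neutrophil markers cfp was called higher (1.04 ± 0.12) and nccrp1 lower (-1.04 ± 0.13, a call lost without 7 dpa replicate 2 or 3), with sums of 899 to 1287 and 1001 to 1302 TPM. The sums weigh abundant members most: nccrp1 was at 127 to 211 TPM in high and 291 to 409 in low libraries. In the 9 libraries mpx was at 6.37 to 26.1 TPM, so the sums say little about neutrophil number. It was not called but was above at every time, at 21.6 TPM against 18.5 and 11.2 at 0 dpa. At 7 dpa mpx was at 16.2 against 8.62 and 6.37, and at 10 dpa at 26.1 and 21.3 against 18.8. Of the 14 listed, 3 were above and 3 below at every time. The part of these cells in the higher inflammatory and interferon genes was not tested.

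Epidermal markers as whole lists had medians near 0, 0.02 for 13 basal and 0.01 for 19 superficial markers. Of these, 3 and 2 were called lower as named above, beside 1.77% of all genes. With median-of-ratios scaling the medians were -0.13 and -0.12, and the basal median was -0.20 without 7 dpa replicate 1. The basal list summed to 60130 to 75750 TPM in high and 74670 to 113800 in low libraries, and the superficial list to 15430 to 24630 and 18880 to 29790. No marker of either list was at 0 in all 9 libraries, and the part of epidermal cell number in the lower adhesion genes was not tested. The ionocyte list summed to 1348 to 1511 TPM in high and 1910 to 2226 in low libraries, with slc12a10.3 at 0 in all 9, and none of the 5 members tested was called (median -0.30). Much of that sum was ca2, at 583 to 699 TPM in the high and 1038 to 1426 in the low libraries. Next to it, atp1a1a.1 was at 610 to 699 and 645 to 788. The markers foxi1, foxi3a and foxi3b were at 0.54 TPM or below in all 9, so the sum says little about ionocyte number.

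The remaining marker lists held at most 1 call in each direction, beside 5.29% called higher and 1.77% called lower over all genes. The vessel gene erg was higher (1.08 ± 0.15) among 24 endothelial markers, whose median was -0.03. In the lateral line list of 11, eya1 was higher (1.18 ± 0.19, a call lost without 0 dpa replicate 1) and s100t lower (-1.66 ± 0.18). None was called among 12 fibroblast (median 0.10), 10 glia and nerve (0.09), 18 pigment cell (0.26), 9 muscle (0.14) and 12 erythrocyte markers (-0.26). The medians of fibroblasts, glia and nerve, and muscle turned negative with median-of-ratios scaling, at -0.05, -0.02 and -0.01.

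**Figure D4:**
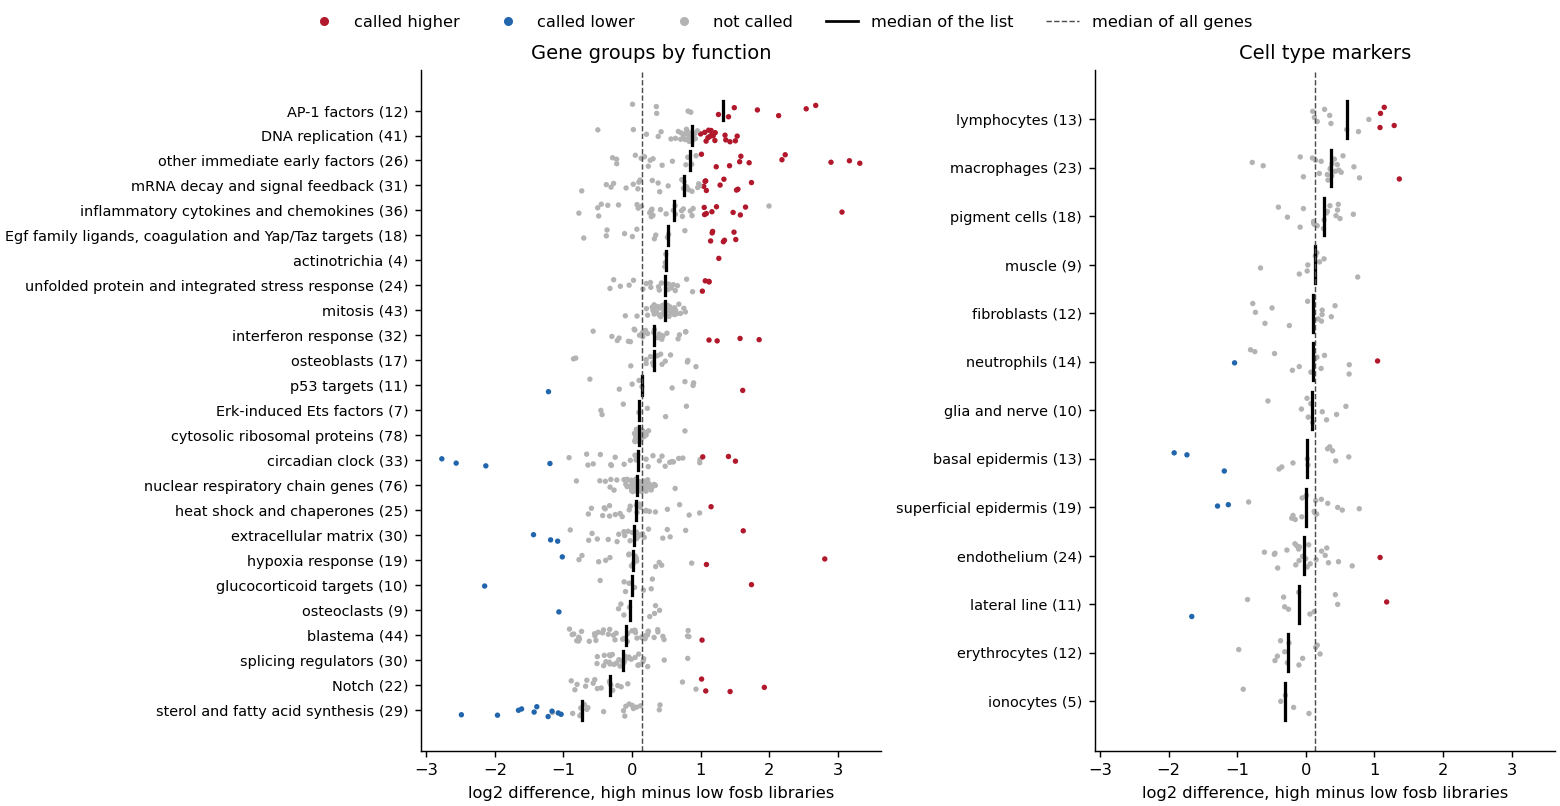
Difference (log2, horizontal axis) between high and low fosb libraries for each tested member of 25 gene groups (left) and 13 lists of cell type markers (right), with the number tested in brackets. Red and blue points are genes called higher and lower, grey points are not called, black bars are list medians and the dashed line is the median of all genes, 0.14. AP-1 factors have the highest median, 1.33, and sterol and fatty acid synthesis the lowest, -0.74.

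The differences were similar in direction at the 3 times, which share no library. Across the 11081 genes, the difference within 0 dpa correlated with that within 7 dpa at a Pearson r of 0.781, 0 with 10 dpa at 0.774 and 7 with 10 dpa at 0.823. These are correlations across genes, which are not independent replicates, and each time was split on the same gene. The sign was the same at all 3 times in 7701 genes (69.5%). Within 0, 7 and 10 dpa, 861, 721 and 582 genes had a difference of at least 1, and 204, 311 and 328 of -1 or below. The median of all genes was 0.22, 0.14 and 0.07 within those times.

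Whether the difference was unequal between times was not fixed by how libraries were chosen and was tested. In limma's moderated F test of the interaction of group with time, 1 of 11081 genes (0.00902%) had a Benjamini-Hochberg adjusted p under 0.05, and 377 had an unadjusted p under 0.05. That gene was sult2st3, of a family of sulfotransferases that act on steroids (adjusted p = 0.01055). It was at 793 TPM against 1425 and 692 at 0 dpa, at 3.02 against 623 and 584 at 7 dpa, and at 352.5 and 271 against 219.5 at 10 dpa. The other 13 libraries of the study held 31.2 TPM or more, and the differences within the 3 times were -0.32, -7.23 and 0.49. The spread in this test rests on 3 pairs of libraries of the same group and time.

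**Figure D5:**
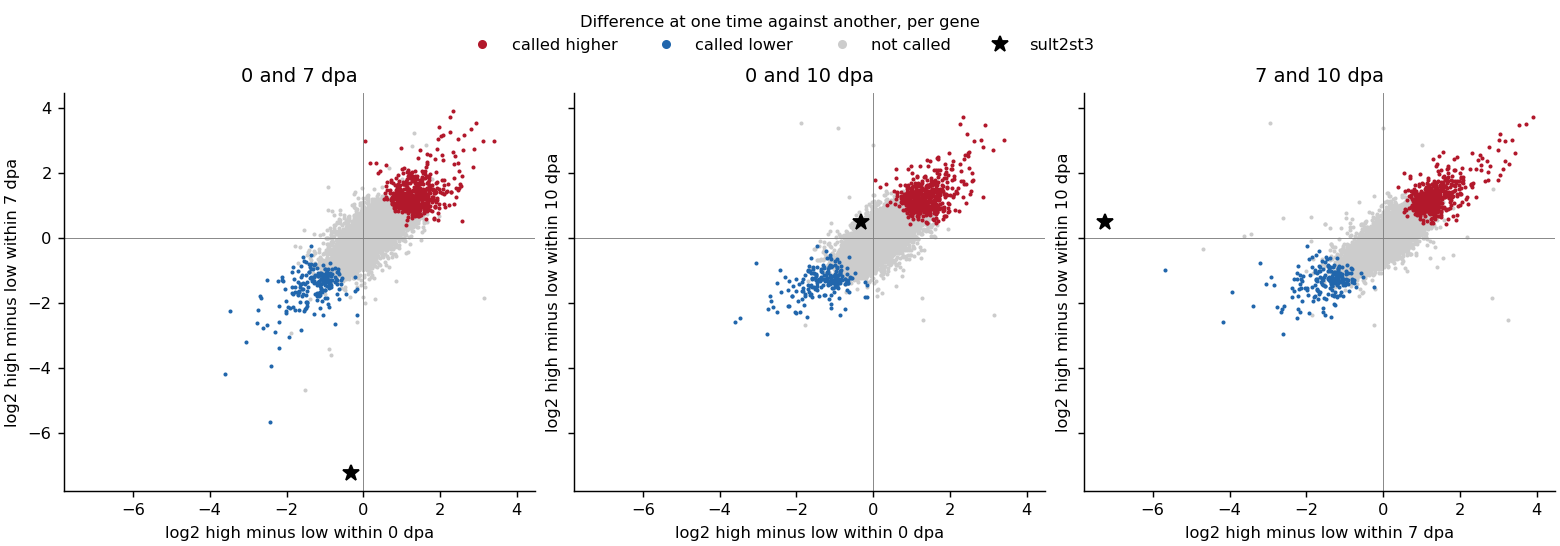
Difference (log2, high minus low fosb libraries) of each gene at 1 time against that at another, for the 3 pairs of times, with genes called higher in red and lower in blue. Both colours lie along the rising diagonal (r of 0.774 to 0.823 across all genes), and the star, sult2st3, stands apart at -7.23 within 7 dpa.

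The 2 libraries of 14 dpa were not used to choose or fit anything above, and their fosb levels were 24.8 TPM in replicate 1 and 144 in replicate 2. Of the 586 genes called higher, 449 (76.6%) were at a higher level in replicate 2 than in replicate 1, against 5111 (46.1%) of all 11081 genes. Of the 196 genes called lower, 175 (89.3%) were at a lower level in replicate 2, against 53.8% of all genes. The median difference, replicate 2 minus replicate 1, was 0.35 on the log2 scale for the first set, -0.38 for the second and -0.03 for all genes. Among single genes, klf4 was at 7.43 and 41.4 TPM in replicates 1 and 2, grk5 at 13.5 and 43.4, nr4a1 at 17.65 and 41.8, and tnfrsf18 at 8.34 and 34.3. Each of these levels in replicate 2 was below the lowest of the 4 high libraries. Of the genes called higher, 137 (23.4%) went the other way and were lower in replicate 2. Among them were sgk1 (150 and 58.1 TPM in replicates 1 and 2), ptgs2a (238 and 148), arg2 (153 and 120) and atf3 (34.4 and 30.15). The clock gene npas2 was at 13.2 and 20.3 TPM, against the direction of its difference at the other times, and per2 at 620 and 515.5. With 1 library on each side there is no replicate check of these values, and the genes counted are not independent of each other. The libraries labelled 3 dpa, with fosb at 23.05 to 102 TPM, were also outside the fit and were not compared in this way.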

How the data were processed

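Bulk RNA of fin ray tips was sequenced in 14 libraries, and 9 of them, from 0, 7 and 10 dpa, were compared. The authors deposited TPM per gene. The submitters' processing notes list Salmon 1.4.0, the read trimmers Trim Galore (0.6.7) and cutadapt (3.5) and, as genome build, danRer11. The step from transcripts to genes and any filter are details not given in the sources used here. Since TPM hold no depth, counting error is unknown, and reads of near-identical genes are shared out by Salmon's estimate.

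Of 14836 genes, 1137 were at 0 in all 9 libraries. The filter kept genes reaching 1 TPM in 2 or more of the 9, fosb was removed, and the deposited TPM were transformed as log2(TPM + 1), a scale that understates the differences of low genes. A linear model with time and group was fitted with limma 3.58.1 in R 4.3.3, and its standard errors are limma's moderated ones. The interaction of group and time was tested in a second model by a moderated F test with Benjamini-Hochberg adjustment over 11081 genes. The fit was tested on simulated data. Standard errors and p-values measure how far pools of animals differed after time and group were taken into account. Since fosb chose the groups, they leave out the difference between high and low pools of a time and so understate the spread between pools.

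The members, gene lists and rules were chosen with earlier results of these data known. The lists of light-responsive, DNA damage, cilia and adhesion genes were made after values had been seen, so their counts could follow from the choice. Named genes were the 15 called with the largest difference in each direction (mean of 5 TPM or more in the higher group), up to 4 called members per list, all members of the 4 lists of AP-1, other immediate early, decay and feedback, and Ets genes, and up to 4 genes of the interaction test. Others are named, after their values were seen, to show the rest of a list. Alternatives were other pseudocounts, filters, scalings and variances, the replicate number as a block, fosb as a number, and leaving out each library. Mitochondrially encoded genes were not analysed here, and no sequence or coordinate is given.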

Additional observations from a re-analysis of the deposited data

Results flagged for a closer look

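The difference of sult2st3 between high and low fosb libraries was unequal between 0, 7 and 10 dpa (limma interaction F test, adjusted p = 0.01055 over 11081 genes). It was -0.32 within 0 dpa, -7.23 within 7 dpa and 0.49 within 10 dpa, with 3.02 TPM in 7 dpa replicate 2 and 219.5 to 1425 TPM in the other 8 libraries. Without 7 dpa replicate 2 its difference over the other times was 0.08. Its relative sult2st1 gave 0.26, and reads are divided between such relatives by estimation. The adjusted p passed the threshold in neither the fit without a filter nor the fit without a trend in the variances.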

How the results depend on the processing

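The count of genes called higher, 586, was 943 with a pseudocount of 0.1, 254 with 5, 384 with median-of-ratios scaling and 349 with quantile normalization. The count called lower, 196, was 123 with a pseudocount of 5, 302 with median-of-ratios scaling and 338 with quantile normalization. The median of all genes was 0.0063 and 0.0028 under those scalings. Leaving out each library in turn gave 526 to 689 higher, 176 to 267 lower and medians of 0.0984 to 0.1834. Filters and fosb as a number kept the counts within 1.5 times. The interaction count, 1, was 0 without a filter, 0 without a trend, and 0 to 4 when a library was left out; leaving out 0 dpa replicate 1, 7 dpa replicate 2 or 10 dpa replicate 1 leaves no comparison at that time. The count called higher for the clock list was 5 without 7 dpa replicate 3, and those of the heat shock and p53 lists were 2 without some single libraries. No named gene that was called changed the sign of its difference under any alternative. The medians of some lists near 0 did change sign with median-of-ratios scaling. Replicate numbers were not used to pair the libraries. Deviations from the mean of each time correlated at -0.774 to 0.572 in 9 same-numbered pairs, 3 of them above 0.1. Those 3 pairs were of the same group, and each other pair set a high library against a low one. The deviations kept the difference between groups, so these correlations could not show whether libraries were paired by replicate number. With the number as a block, 617 genes were higher, 193 lower, the median was 0.1574, and 167 passed the interaction test with 1 residual degree of freedom. The unknown depth limits the low genes most.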
